A study of Homo sapiens with 22 samples.

Results

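Chromosome 19 carried 23727 of the 504389 peaks in 21 deposited lists of CUT&Tag peaks, all those whose first column names this chromosome, against 469335 peaks on the other 21 autosomes together. The lists came from AN3CA, an established human endometrial carcinoma line often used as a model of cells without ARID1A. The cells expressed an empty vector (Empty, 2 replicates) or 1 of 5 forms of ARID1A, with 1 library per antibody for each form. The forms were wild-type ARID1A (WT), DBDmut with a mutated ARID domain, the truncations delIDR1 and CBR, and the DDX4 IDR hybrid. Each was profiled with antibodies to SMARCA4, SMARCC1 and H3K27ac, giving 7 libraries per antibody. The labels give neither the promoter nor the number of clones behind any construct, and separate cultures are not stated for any of the libraries. All p-values therefore measure only the spread between these libraries, and no mutant has a replicate.

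ARID1A belongs to the canonical form of the BAF (SWI/SNF) remodelling complex, which uses ATP to move nucleosomes and is known for keeping enhancers open. SMARCA4 is an ATPase of the complex and SMARCC1 is a core scaffold subunit, while H3K27ac is an acetyl mark on histones at active enhancers and promoters. CUT&Tag tethers a transposase to an antibody bound in nuclei, so that fragments next to the target are released and sequenced. Chromosome 19 is known as the human chromosome most crowded with genes, among them many clustered KRAB zinc-finger genes. Gene density itself was not measured here, because no annotation of the lists' build (hg19) was used. For the same reason sites are given by position, without a gene, exon, promoter or sequence.

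A SMARCA4 list held 5453 to 14849 autosomal peaks, a SMARCC1 list 9489 to 23364 and an H3K27ac list 30991 to 90766. Relative depth, solved from fold and p-value, was 0.916 to 1.95, 1.33 to 3.28 and 3.59 to 14.5 fragments per kb in that order, the deepest being H3K27ac of Empty replicate 2. Peak names began with 3 stamps, whose meaning the labels do not give: 15 lists (Empty replicate 1, WT, DBDmut, delIDR1 and CBR) shared the first, and the lists of DDX4 and of Empty replicate 2 each had their own.

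Peaks of all 3 antibodies were crowded on chromosome 19. It makes up 2.11% of the length between the first and last peaks of the autosomes, but it held 4.22% to 7.88% of the BAF subunit peaks and 3.80% to 5.07% of the H3K27ac peaks. Of the 22 autosomes it had the most peaks per Mb in 20 of the 21 lists, and in the H3K27ac list of Empty replicate 2 it came after chromosome 22.

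For SMARCA4, the share on chromosome 19 was 7.78% (424 peaks) and 7.06% (650) in the Empty replicates, 4.80% (610) in WT, 5.21% (774) in DBDmut, 5.48% (384) in delIDR1, 5.89% (743) with CBR and 7.88% (679) in DDX4. WT had the lowest share, and DDX4 was as high as the Empty lists. For SMARCC1 the shares were 5.84% (779) and 5.98% (904) in Empty, 4.22% (986) in WT, 4.63% (854) in DBDmut, 5.11% (525) in delIDR1, 5.87% (689) with CBR and 5.85% (555) in DDX4. WT was lowest again, and Empty, CBR and DDX4 lay together at the top. The WT SMARCC1 list was also the longest (23364 peaks) and that of DDX4 the shortest (9489), while delIDR1 had 10273. The shares of single lists at equal length are not given here, and the comparison of Empty with the ARID1A forms at equal lengths follows below. For H3K27ac they were 4.95% (1755) and 4.44% (4028) in Empty, 3.86% (1916) in WT, 3.80% (1448) in DBDmut, 4.16% (1289) in delIDR1, 5.07% (2042) with CBR and 4.76% (1693) in DDX4. WT, DBDmut and delIDR1 thus lay below both Empty lists for all 3 antibodies, an order noticed in the values and not tested.

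**Figure D1:**
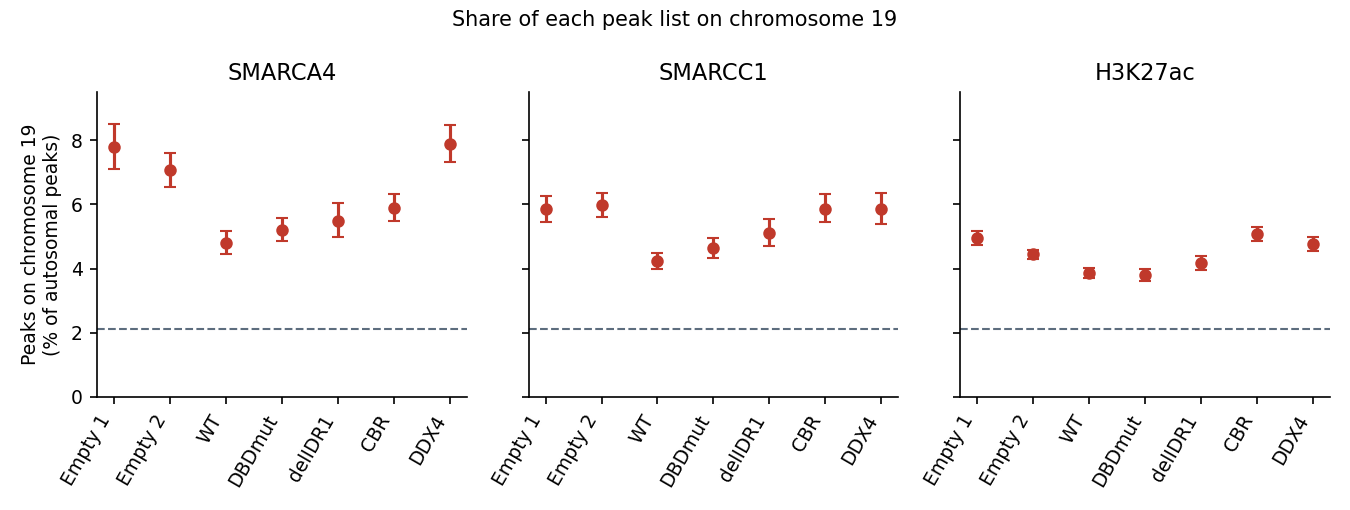
Share of the autosomal peaks of each list that lie on chromosome 19 (percent, y axis) by library (x axis), with 1 panel per antibody. Points are single lists, bars are Wilson 95% intervals, and the dashed line is the chromosome's share of autosomal length (2.11%); every list lies above the line, and WT has the lowest share for both BAF subunits.

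Per Mb, chromosome 19 had 3.12 ± 0.667 (SD, n = 7) times as many SMARCA4 peaks as the other autosomes, 2.62 ± 0.364 times as many SMARCC1 peaks and 2.15 ± 0.262 times as many H3K27ac peaks. On the log2 scale these differences were 1.61, 1.38 and 1.10. The direction was the same in 7 of 7 libraries for each antibody (two-sided exact sign-flip permutation test, p = 0.0156 each, the smallest that 7 libraries allow, and 0.025 after Benjamini-Hochberg adjustment over 16 tests). Within the 5 libraries per antibody that share the first stamp the log2 differences were 1.50, 1.31 and 1.07, again in every library (exact p = 0.0625, the smallest that 5 allow). Leaving out either Empty replicate takes the adjusted p to 0.05, since 6 libraries cannot go lower than 0.0313 unadjusted.

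In full lists, the share of peaks on this chromosome was higher for the BAF subunits than for the acetyl mark. In libraries paired by construct and Empty replicate, the share of SMARCA4 peaks exceeded that of H3K27ac by 1.86 ± 0.958 percentage points (SD, n = 7), and that of SMARCC1 by 0.942 ± 0.779 points. The share of SMARCC1 peaks exceeded that of H3K27ac by 0.923 ± 0.352 points. Each difference was positive in 7 of 7 pairs (exact sign-flip permutation p = 0.0156, adjusted p = 0.025). The one between the subunits had an adjusted p of 0.05 once peaks near chromosome ends and the largest peak-free stretch were left out. The H3K27ac lists were the longest, and the part of list length in these differences was not tested. Chromosome 19 held 5.19% of the strongest 10% of H3K27ac peaks (by the authors' -log10 q) in WT and 5.00% in delIDR1. The full SMARCC1 lists had 4.22% and 5.11%, and only in delIDR1 was the H3K27ac value the lower one.

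The chromosome 19 share was not shown to differ between cells with and without a form of ARID1A. It averaged 7.42% ± 0.508 (SD, n = 2) in Empty and 5.85% ± 1.20 (SD, n = 5) with ARID1A for SMARCA4, 5.91% ± 0.0956 and 5.14% ± 0.730 for SMARCC1, and 4.70% ± 0.365 and 4.33% ± 0.565 for H3K27ac. Exact permutation tests gave p = 0.238, 0.238 and 0.476 (adjusted p = 0.293, 0.293 and 0.533), where 2 lists against 5 cannot go below 0.0476. With lists cut to equal lengths, the SMARCA4 difference narrowed from 1.57 to 0.572 points and the H3K27ac difference widened from 0.367 to 0.837 points. The SMARCC1 difference then went from 0.773 to 0.894 points, with the smallest p the design allows (exact p = 0.0476, adjusted p = 0.0693).

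The median peak on chromosome 19 was also stronger than that of the other autosomes within each list. By rank of the authors' -log10 q, where a low percentile means a strong peak, the median chromosome 19 peak stood at percentile 38.0 for SMARCA4, against 50.8 for the other autosomes (means of 7 lists). For SMARCC1 it stood at 43.9 against 50.3, and for H3K27ac at 40.4 against 50.5. The chromosome 19 median was lower in 7 of 7 lists of each antibody (exact sign-flip permutation p = 0.0156, adjusted p = 0.025). The difference in percentile was largest in the CBR lists of SMARCA4 (33.3 against 51.1) and H3K27ac (35.8 against 50.8), and among SMARCC1 lists in WT (39.7 against 50.4).

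The SMARCC1 result was the least firm of these. Its mean difference of -6.39 percentile points shrank to -2.43 (adjusted p = 0.227, exact test) with only peaks of -log10 q of 5 or more, and to -2.28 (adjusted p = 0.05) with lists of equal length. The local background under the peaks was higher on chromosome 19 in 7 of 7 SMARCA4 lists, 4 of 7 SMARCC1 lists and 6 of 7 H3K27ac lists. The widest ratios of median background were at 0.521 against 0.321 fragments for SMARCA4 in CBR and 6.73 against 4.03 for H3K27ac in Empty replicate 2. The part of the background in these ranks was not tested. Among the top 10% of SMARCC1 peaks by rank, chromosome 19 held 5.78% in Empty replicate 1, against 5.84% of the full list. Every other list of the 3 antibodies had a higher share in its top 10% than in full. For SMARCC1 the shares were 6.22% against 5.98% in Empty replicate 2 and 6.57% against 4.63% in DBDmut.

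BAF sites were taken as SMARCA4 peaks that overlapped a SMARCC1 peak of the same library by at least 1 bp. WT had 508 such sites on chromosome 19, or 8.60 per Mb, the most of any autosome, and 83.3% of its 610 SMARCA4 peaks there had SMARCC1, against 74.95% elsewhere. A site was called gained when neither Empty replicate had a peak of either subunit there, constitutive when both replicates had both subunits, and mixed otherwise.

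Most BAF sites on chromosome 19 overlapped a peak of a BAF subunit in an Empty replicate, though fewer had both subunits in both replicates. Of the 508 sites, 111 were gained (21.9%, Wilson 95% interval 18.5% to 25.6%), against 46.4% of 9077 sites on the other autosomes. Constitutive sites numbered 232 (45.7%, 41.4% to 50.02%), against 25.5%, and 165 were mixed (32.5%), against 28.1%. These intervals cover counting error only, and neighbouring sites are not independent. Chromosome 19 had the lowest gained share and the highest constitutive share of the 22 autosomes, followed in both by chromosome 17 with 34.9% and 37.0%.

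Chromosomes 16, 17 and 22, used as a nearer comparison because they are small or gene-dense, together had 37.3% gained and 33.8% constitutive sites. They were not alike: chromosome 16 had 36.9% and 33.6%, and chromosome 22 had 44.1% and 26.1%, close to all other autosomes (46.4% and 25.5%). Against chromosomes 16, 17 and 22 together the gained share of chromosome 19 was lower by 15.4 percentage points, where the gap to all other autosomes was 24.5 points. In sites per Mb, chromosome 19 ranked 5 for gained sites (1.88) and 1 for constitutive sites (3.93). Chromosome 17, the next for constitutive sites, had 1.88 of them per Mb and 1.77 gained sites per Mb.

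**Figure D2:**
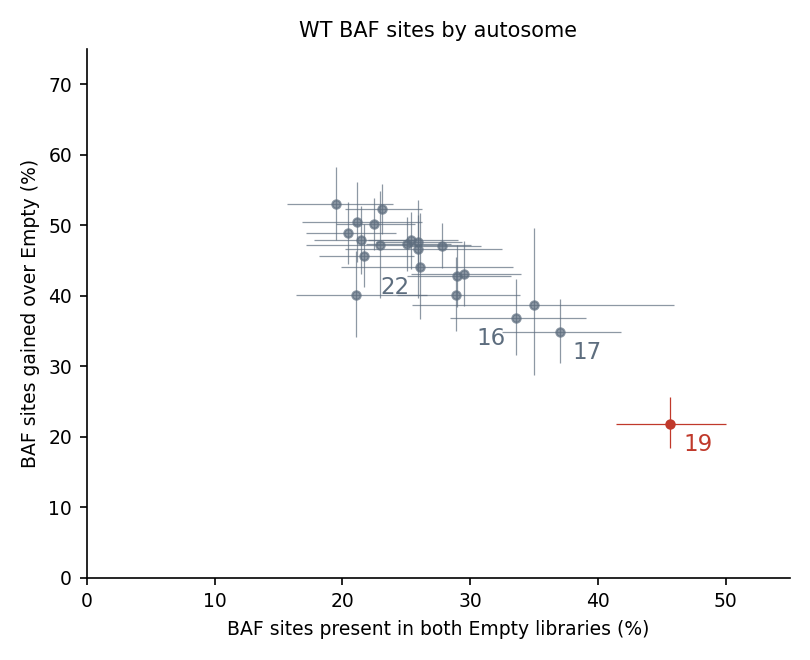
Gained share (percent, y axis) against constitutive share (percent, x axis) of the WT BAF sites, with 1 point per autosome and Wilson 95% intervals as bars. Chromosome 19 (red) stands alone at 45.7% constitutive and 21.9% gained, and the labels 16, 17 and 22 sit below the points of the chromosomes used as a nearer comparison.

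The peak numbers show the same pattern without any overlap rule. WT had 1.44 times the SMARCA4 peaks of Empty replicate 1 on chromosome 19 but 2.41 times on the other autosomes. Against Empty replicate 2 the ratios were 0.938 and 1.41. For SMARCC1 they were 1.27 and 1.78 against replicate 1, and 1.09 and 1.57 against replicate 2. The ratio was lower on chromosome 19 in each of these 4 comparisons, which share the WT lists.

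The gained share was lower on chromosome 19 at every level of peak strength. When the WT BAF sites of all autosomes were cut into 5 equal classes by their summed rank in both lists, 10.7% of the strongest class was gained on chromosome 19 (13 of 121 sites), against 24.8% elsewhere. In the next classes the shares were 12.6% against 38.2%, 17.1% against 45.5%, 34.2% against 55.8% and, among the weakest sites, 45.8% (38 of 83) against 67.0%. The chromosome 19 share was lower in 5 of 5 classes, also under each of the 8 alternative settings and without the region of most gained sites described next.

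**Figure D3:**
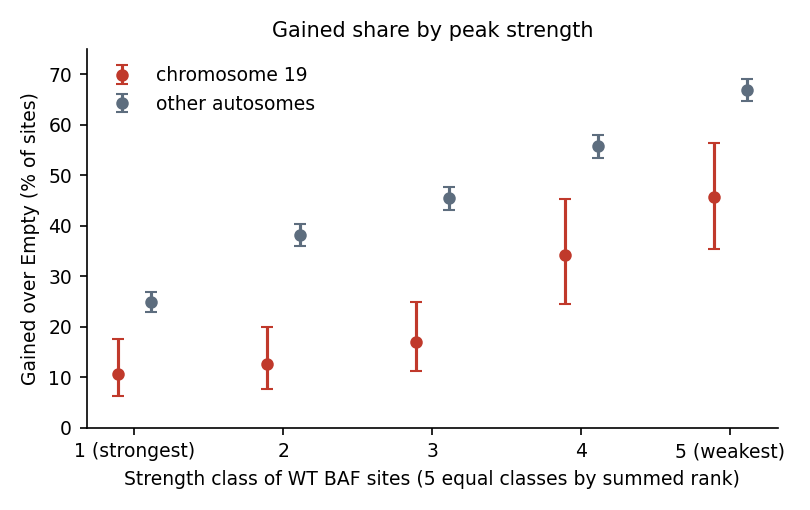
Percentage of WT BAF sites gained over Empty (y axis) in 5 equal classes of site strength (x axis, strongest at the left) for chromosome 19 (red) and the other autosomes (grey), with Wilson 95% intervals. Both series climb from strong to weak sites, and chromosome 19 lies lower in every class, at 10.7% against 24.8% on the left and 45.8% against 67.0% on the right.

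The arms did not differ beyond counting error. The largest stretch without a peak in any list ran from 24629147 to 27731888. On the short side of it 56 of 244 sites were gained (22.95%, 18.1% to 28.6%), and on the long side 55 of 264 (20.8%, 16.4% to 26.1%).

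Within the short arm, gained sites were unevenly spread. The 5-Mb bin from 20000001 to 25000000, next to that stretch, held 25 gained sites among 44 (56.8%, 42.2% to 70.3%), 8 constitutive and 11 mixed. Over the 10 bins of chromosome 19 with at least 20 sites, the next highest gained share was 32.6% (40000001 to 45000000) and the lowest 11.1% (55000001 to 60000000). The bin was picked after its values were seen, and 40 of 177 bins of that size on other autosomes (22.6%) had a gained share as high or higher. Without it 18.5% of the 464 remaining sites were gained, and 48.3% were constitutive.

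In H3K27ac peaks the bin was the sparsest of these 10. WT had 18.2 of them per Mb there, against 27.8 to 57.6 per Mb in the other 9 bins with at least 20 sites and 17.5 per Mb on the other autosomes. In the bin 40 of the 91 WT H3K27ac peaks (44.0%) had no Empty peak, against 20.5% on the rest of the chromosome. It held 48 of the 610 WT SMARCA4 peaks of the chromosome (7.87%), against 4.25% and 3.38% in the Empty replicates. The bin was picked for its gained share of WT sites, so a higher WT share than in Empty partly follows from that choice. DBDmut had 5.30% of its chromosome 19 SMARCA4 peaks there, CBR 4.71%, delIDR1 4.43% and DDX4 2.80%. WT was the highest of the 7 for SMARCA4 and for SMARCC1 (6.59%). For H3K27ac the share was 4.75% in WT, below DBDmut (4.90%) and delIDR1 (4.81%). Of its own BAF sites, DBDmut, the mutant with the most gained ones, had 10 of 29 in the bin gained (34.5%), against 8.24% on the rest of the chromosome. CBR had 5 of 24 (20.8%), against 9.15%, delIDR1 1 of 13 (7.69%), against 7.66%, and DDX4 1 of 15 (6.67%), against 1.09%. These gained shares use the same Empty lists as the choice of the bin.

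Gained sites on chromosome 19 mostly stood alone. Joined at the stitching distance commonly used for super-enhancers, 12 of the 111 (10.8%) fell into 6 pairs and none into a larger region. Most gained sites of the other autosomes stood alone too, with 741 of 4211 (17.6%) in joined regions, 40 of which held 3 or more sites. The shortest pair, 20878683 to 20879204, was a pair of SMARCA4 peaks under a single SMARCC1 peak, and DBDmut had both subunits at the second of them. The median distance from a gained site to the nearest constitutive site was 116 kb on chromosome 19, 201 kb on chromosomes 16, 17 and 22, and 327 kb on all other autosomes. Constitutive sites were also densest on chromosome 19 (3.93 per Mb, against 1.88 on chromosome 17, the next), and the distances were not matched for that density.

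The strongest gained site, by summed rank in the WT lists, lay at 21299936 to 21300934, with a fold enrichment over background of 13.1 for SMARCA4 and 12.54 for SMARCC1 (these are the authors' values within WT). DBDmut, delIDR1 and CBR had both subunits there and DDX4 neither. H3K27ac was found in all 5 forms and in neither Empty replicate. It overlapped the strongest H3K27ac peak that WT had over Empty on this chromosome, at 21299874 to 21301049 (fold 12.4).

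The next strongest gained sites showed how the mutants diverged. At 43436679 to 43437237 (SMARCA4 fold 13.7), DBDmut and delIDR1 had both subunits and H3K27ac, and CBR and DDX4 had no peak of any antibody. At 43265229 to 43265740 (13.6), DBDmut had both subunits, delIDR1 had SMARCC1 alone, and H3K27ac was also present in DDX4. At 21239835 to 21240612 (14.8), DBDmut and CBR had both subunits, and delIDR1 had neither but did have H3K27ac.

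Of the other 4 sites among the 8 strongest, 21365928 to 21366672 (12.4) was kept by DBDmut and CBR, and 23779675 to 23780172 (10.9) by DBDmut. The site at 3450937 to 3451278 (10.8) was kept by DBDmut and delIDR1. The site at 3968723 to 3968960 (11.7) differed from the rest in that all 7 H3K27ac lists, Empty included, had a peak there. It was kept by DBDmut, delIDR1 and CBR, and DDX4 had SMARCC1 alone. Thus DBDmut had both subunits at all 8, CBR at 4, delIDR1 at 4 and DDX4 at none. Equally strong gained sites of the other autosomes were not counted, so these numbers describe the 8 sites only. Of the 8, 4 lay in the bin next to the peak-free stretch.

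A site was kept by a mutant where peaks of both its subunits overlapped the site. DBDmut kept 33 of the 111 gained sites of chromosome 19 (29.7%, 22.02% to 38.8%), against 35.7% of 4211 on the other autosomes. DelIDR1 kept 13 (11.7%, 6.97% to 19.01%), against 14.1%, and CBR kept 9 (8.11%, 4.32% to 14.7%), against 5.49%. DDX4 kept none (0%, with an upper Wilson bound of 3.35%), against 0.475%. The order of the mutants was thus the one seen elsewhere, and every share lay within its counting error of the other autosomes.

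Over the 4 mutants the kept share of gained sites averaged 12.4% on chromosome 19 and 13.9% elsewhere, lower in 3 and higher in 1 (exact sign-flip permutation p = 0.5, adjusted p = 0.533, where 4 mutants cannot go below 0.125). The sign of the mean difference, -1.56 points, turned under 5 alternative settings, among them chromosomes 16, 17 and 22 as comparison (1.11 points) and a -log10 q of at least 5 (2.47 points). No mutant kept 74 of the 111 sites (66.7%), against 59.4% elsewhere. Among the 37 kept sites, 19 were kept by DBDmut alone, 6 by DBDmut and delIDR1, 4 by DBDmut and CBR, 4 by these 3, 3 by delIDR1 alone and 1 by CBR alone. These exact patterns were not counted on the other autosomes. Sites kept by both DBDmut and delIDR1, with or without CBR, made up 9.01% of the 111, against 10.9% elsewhere. Leaving out the bin next to the peak-free stretch, CBR kept 5 of 86 (5.81%).

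**Figure D4:**
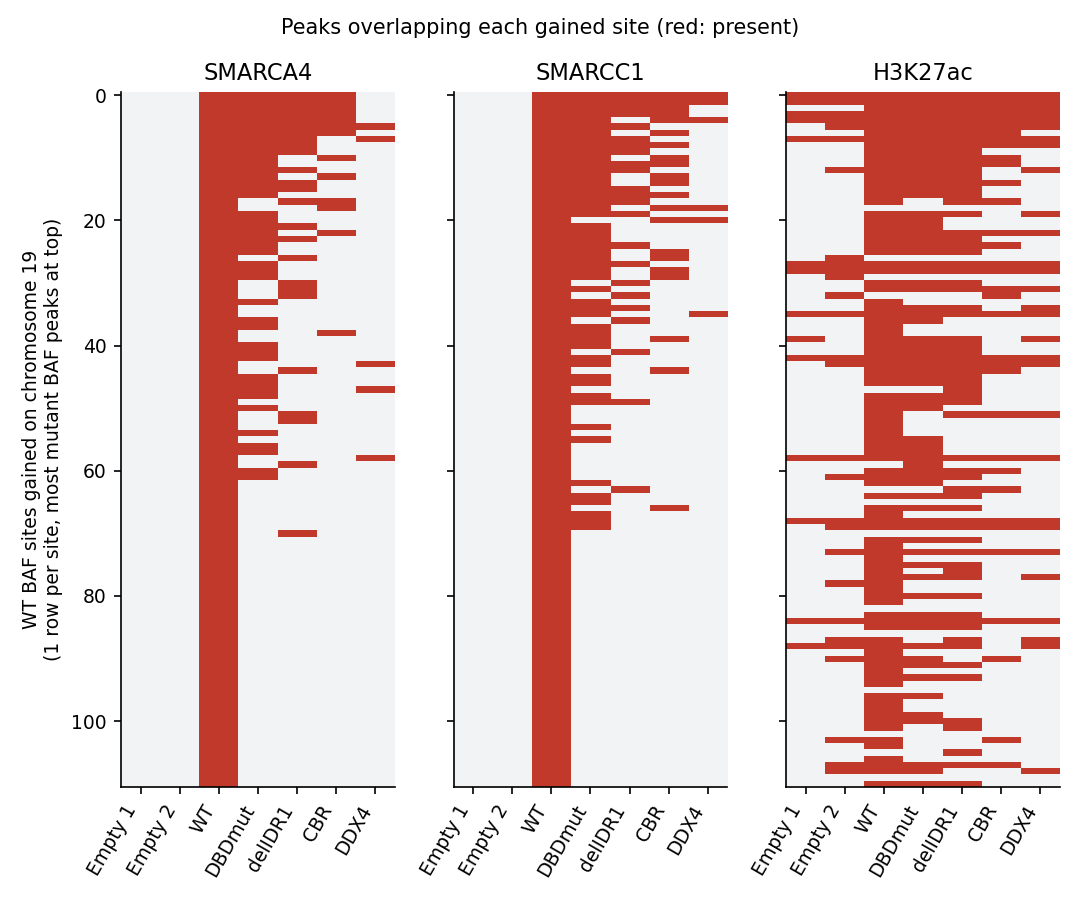
Peaks overlapping each of the 111 WT BAF sites gained on chromosome 19 (1 row per site, red where a peak is present), with 1 panel per antibody and 1 column per library. The Empty columns of SMARCA4 and SMARCC1 are blank and the WT columns full by definition; DBDmut has the most peaks of both subunits, DDX4 has SMARCA4 at 5 sites and SMARCC1 at 6, and H3K27ac is present at 96 sites in WT.

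Single subunits were also counted. In CBR, SMARCC1 alone or with SMARCA4 was present at 21 gained sites (18.9%, 12.7% to 27.2%), against 11.2% elsewhere (10.3% to 12.2%). The nearer chromosomes 16, 17 and 22 had 12.9% (9.67% to 16.96%), an interval that overlapped that of chromosome 19. CBR's SMARCA4 was present at 11.7% against 10.1%. In DDX4, SMARCA4 was present at 5 sites (4.50%, 1.94% to 10.1%), against 1.76%. DBDmut had neither subunit at 50 of the sites (45.05%, against 39.3% elsewhere), delIDR1 at 76 (68.5%, against 67.1%), CBR at 86 (77.5%, against 84.1%) and DDX4 at 100 (90.1%, against 93.9%).

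The 2 strongest gained sites with neither subunit were taken for each mutant. For DBDmut they were 8219818 to 8219962 (SMARCA4 fold 7.96) and 50490797 to 50490898 (6.75), both kept by delIDR1. The median SMARCA4 fold of the 111 gained sites was 6.87. For delIDR1 they were 21239835 to 21240612, named above, and 13964338 to 13964528 (9.73), where DBDmut had SMARCA4 alone and CBR and DDX4 had SMARCC1 alone. For CBR they were 43436679 to 43437237 and 43265229 to 43265740, and for DDX4 the 2 strongest of all gained sites.

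Constitutive sites were widely kept. DBDmut kept 226 of the 232 (97.4%, 94.5% to 98.8%), against 93.9% of 2313 elsewhere. CBR kept 206 (88.8%, 84.1% to 92.2%), against 85.9%, and DDX4 kept 213 (91.8%, 87.6% to 94.7%), against 87.4%. DelIDR1 alone kept a smaller share than on the other autosomes, 164 sites (70.7%, 64.5% to 76.2%) against 76.0%, though the intervals overlapped and chromosomes 16, 17 and 22 had 71.96%. Both subunits were present in all 7 libraries at 150 constitutive sites (64.7%), against 64.8% elsewhere.

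Over the 4 mutants the kept share of constitutive sites averaged 87.2% on chromosome 19 and 85.8% elsewhere (exact sign-flip permutation p = 0.625, the same after adjustment), and the sign of this mean difference turned under 3 of the alternative settings. At mixed sites the lower share in delIDR1 went beyond counting error, at 39 of 165 (23.6%, 17.8% to 30.7%) against 35.6% (33.7% to 37.4%). On chromosomes 16, 17 and 22 together it was 26.5%. DBDmut kept 69.7% of the mixed sites against 67.1%, CBR 48.5% against 48.2%, and DDX4 42.4% against 36.0%. The SMARCA4 and SMARCC1 lists of delIDR1 held 7011 and 10273 peaks, fewer than those of WT, DBDmut or CBR. Those of DDX4, which kept 91.8% of the constitutive and 42.4% of the mixed sites, held 8614 and 9489. The part of list length in the delIDR1 share of mixed sites was not tested, and its constitutive share with lists of equal length is not given here.

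**Figure D5:**
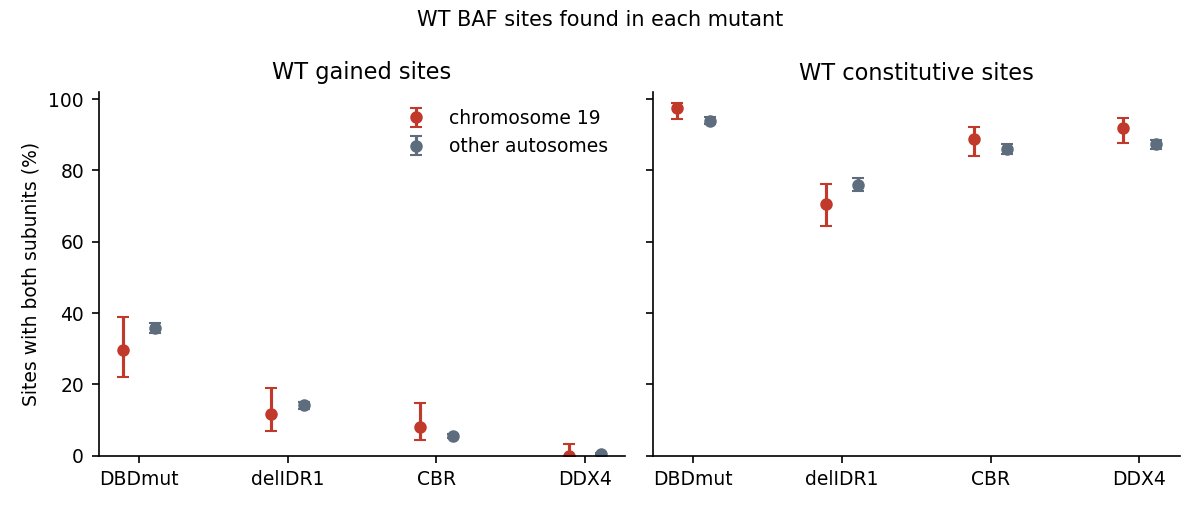
Percentage of WT BAF sites at which each mutant had both subunits (y axis) by mutant (x axis), for gained sites (left) and constitutive sites (right), with Wilson 95% intervals. Chromosome 19 (red) and the other autosomes (grey) lie close together in each mutant, with DBDmut highest and DDX4 at 0% of gained sites.

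The strongest constitutive sites were present in every list. The first and second, 27731917 to 27733544 (SMARCA4 fold 22.8, SMARCC1 fold 16.3) and 27738039 to 27738946 (18.9 and 11.2), stood at the very edge of the peak-free stretch, where 4 constitutive sites lay within 8.35 kb. The next were 45394019 to 45394493 (22.7 and 21.3), 49588431 to 49588642 (22.7 and 21.9) and 18633019 to 18633396 (17.5 and 19.4). All 5 had both subunits and H3K27ac in all 7 libraries, and equally strong sites of the other autosomes were not counted. The first and second sites, at the edge of the stretch, had a SMARCA4 -log10 q of 420 and 237, against 90.8 at 45394019 to 45394493. Regions prone to artefact signal were not filtered out here, and the part of such signal at the edge was not tested. Without peaks within 500 kb of that stretch and of the chromosome ends, the constitutive share of WT sites was 44.6%, against 24.7% elsewhere.

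Sites of both Empty replicates were rarely missing from WT. Of the 288 BAF sites of Empty replicate 1 on chromosome 19 that replicate 2 shared, 7 (2.43%) had neither subunit in WT, against 2.11% elsewhere. The share moved with the Empty list used, at 16 of 361 sites of replicate 1 (4.43%, against 4.79% elsewhere) and 61 of 487 of replicate 2 (12.53%, against 16.4%). Among the 7, the strongest, at 605400 to 605608, had both subunits and H3K27ac in all 6 other libraries and no peak of any antibody in WT. At 24097537 to 24097651 only SMARCC1 of DBDmut and of DDX4 was found among the forms, and H3K27ac was present in all 7 lists. At 50979528 to 50979675, SMARCA4 of DBDmut and of DDX4 was found, and H3K27ac in 6 lists but not delIDR1.

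Most gained sites carried H3K27ac in WT. It was found in WT at 96 of the 111 gained sites (86.5%). DBDmut had it at 72 (64.9%), delIDR1 at 67 (60.4%), CBR at 34 (30.6%), DDX4 at 29 (26.1%) and the Empty replicates at 14 (12.6%) and 28 (25.2%). On the other autosomes the shares were 89.4%, 72.5%, 65.7%, 26.5%, 27.1%, 12.9% and 21.97% in the same order. WT, DBDmut and delIDR1 thus stood well above both Empty replicates. CBR and DDX4 lay above Empty replicate 1 and nearer to Empty replicate 2. The H3K27ac list of replicate 2 was far longer (90766 autosomal peaks) than those of DDX4 (35538) and replicate 1 (35429). These shares were not matched for list length. Of the 82 gained sites with no H3K27ac in either Empty replicate, WT had it at 70 (85.4%), DBDmut at 49 (59.8%), delIDR1 at 45 (54.9%), CBR at 14 (17.1%) and DDX4 at 8 (9.76%). At the 3152 such sites of the other autosomes the shares were 87.3%, 67.96%, 59.8%, 12.98% and 13.6%, each with an interval that overlapped that of chromosome 19.

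Within a mutant, H3K27ac was more frequent where the complex was kept, on chromosome 19 as elsewhere. DBDmut had it at 30 of the 33 gained sites with both subunits (90.9%), at 19 of the 28 with a single subunit (67.9%) and at 23 of the 50 with neither (46.0%). On the other autosomes these shares of DBDmut were 94.0%, 80.3% and 48.0%. For delIDR1 the counts were 12 of 13, 16 of 22 and 39 of 76 (51.3%), against 95.6%, 85.2% and 53.9% elsewhere. For CBR they were 7 of 9, 8 of 16 and 19 of 86 (22.1%), against 83.6%, 62.2% and 18.4%. Sites with H3K27ac and neither subunit made up 35.1% of the 111 in delIDR1, 20.7% in DBDmut, 17.1% in CBR and 18.9% in DDX4. The shares elsewhere were close, at 36.1%, 18.9%, 15.5% and 22.6%.

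At constitutive sites H3K27ac was nearly always present, from 92.7% in delIDR1 to 99.6% in Empty replicate 2, and 206 of the 232 sites (88.8%) had it in all 7 libraries, against 85.7% elsewhere. At each library's own BAF sites, the share with H3K27ac was 93.9% and 98.4% in Empty, 93.9% in WT, 89.1% in DBDmut, 93.1% in delIDR1, 88.9% with CBR and 96.9% with DDX4. Elsewhere it was 92.2%, 96.4%, 90.2%, 88.4%, 89.8%, 81.6% and 96.3%. The excess on chromosome 19 was small, 2.76 ± 2.34 percentage points (SD, n = 7), widest in CBR, and positive in 7 of 7 libraries (exact sign-flip permutation p = 0.0156, adjusted p = 0.025). It did not pass the threshold with stricter overlap, at 2.12 points (adjusted p = 0.075, exact test) for 50% of the shorter peak and 1.67 points (adjusted p = 0.286) for summits within 250 bp.

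The H3K27ac lists also had a lower gained share on chromosome 19. Of the 1916 WT H3K27ac peaks there, 415 (21.7%, 19.9% to 23.6%) had no H3K27ac peak in either Empty replicate, against 40.6% of 47766 elsewhere and 35.8% on chromosomes 16, 17 and 22. Peaks present in both replicates made up 57.4%, against 38.3%. The level moved with the Empty list used: with replicate 1 as the sole control 41.2% of the chromosome 19 peaks had no Empty peak, against 58.6% elsewhere. A WT BAF subunit overlapped 139 of the 415 (33.5%), against 33.3% elsewhere.

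The mutants differed at these 415 peaks. DBDmut had 145 of them (34.9%, 30.5% to 39.6%), against 41.2%, and delIDR1 had 144 (34.7%), against 33.0%. CBR had 48 (11.6%, 8.84% to 15.0%), against 7.65%, and DDX4 had 35 (8.43%), against 7.54%. DBDmut was thus lower and CBR higher on chromosome 19 than on all other autosomes, each beyond both intervals. On chromosomes 16, 17 and 22 DBDmut had 33.2% and CBR 9.57%, with intervals that overlapped those of chromosome 19. Where a WT BAF subunit was present, DBDmut had 82 of 139 (59.0%), against 64.5% elsewhere, and delIDR1 80 (57.6%), against 54.7%. Without one, DBDmut had 63 of 276 (22.8%), against 29.5%, and delIDR1 64 (23.2%), against 22.2%. The split by BAF subunit was thus found on the other autosomes too.

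CBR also had more of the H3K27ac peaks that both Empty replicates shared. It lacked 342 of the 1606 chromosome 19 peaks shared by both Empty replicates (21.3%, 19.4% to 23.4%), against 31.3% elsewhere (30.7% to 31.8%) and 26.9% on chromosomes 16, 17 and 22. WT lacked 18.1% against 20.4%, DDX4 14.6% against 17.5%, DBDmut 24.7% against 23.9%, and delIDR1 34.4% against 34.8%. CBR had the widest gap of these 5 forms. Its H3K27ac list also had the highest chromosome 19 share of the 7 and a median background of 3.66 fragments under chromosome 19 peaks against 2.35 elsewhere, and the part of that background was not tested.

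The 5 strongest H3K27ac peaks of WT without an Empty peak all had a counterpart in DBDmut and delIDR1. After the one at 21299874 to 21301049 came 17246249 to 17246778 (fold 11.8), the sole one with no WT BAF subunit, which was absent from CBR and present in DDX4. The peaks at 11196017 to 11196464 (6.80) and 45129138 to 45129858 (11.7) were present in CBR and absent from DDX4. The peak at 39149227 to 39149729 (9.21) was present in both. Equally strong gained peaks of the other autosomes were not counted, so this describes the 5 peaks only.

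Finally, each form's own BAF sites were compared with Empty. On chromosome 19, 53 of 551 sites of DBDmut were gained (9.62%), against 29.6% elsewhere. In delIDR1 20 of 261 were gained (7.66%), against 18.4%, and in CBR 45 of 461 (9.76%), against 13.7%. DDX4 had 5 of 383 (1.31%), against 1.25%. With WT at 21.9% against 46.4%, the gained share was lower on chromosome 19 in 4 of 5 forms, by 11.8 ± 10.4 percentage points on average (SD, n = 5; exact sign-flip permutation p = 0.125, adjusted p = 0.182, where 5 forms cannot go below 0.0625). All 5 forms share the Empty lists as control. Of the gained sites, WT had both subunits at 34 of 53 for DBDmut (64.2%) and 12 of 20 for delIDR1 (60%). For CBR the count was 10 of 45 (22.2%) and for DDX4 none of 5. On the other autosomes the shares were 55.2%, 75.6%, 30.4% and 35.2% in that order. Each interval overlapped that of chromosome 19.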

How the data were processed

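Members and lists were chosen with earlier results of these data known. Per the labels' protocols, CUT&Tag followed the procedure of Epicypher, a supplier of reagents. The submitters' processing notes name hg19 and bcl2fastq. Which aligner and peak caller were used is not given in the sources used here. There is 1 deposited list of 10 columns per library, so peaks were called library by library. The authors deposited a fold enrichment (a ratio to local background), a -log10 p-value, a -log10 q-value of at least 2.00 and a score of 10 times the -log10 q. These values were used only within a list. The HA library was not used here.

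Peaks on chromosomes 1 to 22 were kept, and peaks sharing at least 1 bp overlapped. Density used the span from first to last peak of each chromosome. Pileup and background of a peak were solved from its fold and p-value, taken as a Poisson tail, and at least 99.885% of a list's peaks matched a whole pileup (tolerance 0.001 in -log10 p). The lowest background divided by the shortest peak gave fragments per kb, a relative depth only. Intervals of shares are Wilson 95% intervals. The tests were exact sign-flip and label permutation tests over libraries, two-sided, with Benjamini-Hochberg adjustment over 16 tests and a threshold of 0.05 for the adjusted p. Code was tested on simulated data.

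Sites were named by rule: on chromosome 19 the 8 gained and 5 constitutive WT sites of smallest summed rank, the 2 strongest gained sites with neither subunit in each mutant, the 5 WT H3K27ac peaks of highest -log10 q without an Empty peak, the 3 strongest sites of both Empty replicates absent from WT, and the region with the most gained sites (of 6 tied, the shortest). Alternatives were a -log10 q of at least 5, equal list lengths (5453, 9489 and 30991 peaks), 50% overlap, summits within 250 bp, omission of either Empty replicate, leaving out peaks within 500 kb of chromosome ends and of the largest peak-free stretch, chromosomes 16, 17 and 22 as comparison, and either subunit alone. The 5-Mb bin left out, and the set of libraries with the first stamp, were chosen after seeing the data. No gene, promoter or sequence was looked up, because the reference tables were of another build. Python 3.11.15, numpy 2.4.6, scipy 1.17.1, pandas 2.3.3 and matplotlib 3.10.9 were used.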

Additional observations from a re-analysis of the deposited data

Results flagged for a closer look

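In the kept share of constitutive sites, delIDR1 went against the other mutants: chromosome 19 minus the other autosomes was -5.36 percentage points in delIDR1, and 3.47 in DBDmut, 2.84 in CBR and 4.43 in DDX4. In the kept share of gained sites, CBR went against the other mutants, with 2.62 points against -5.99 in DBDmut, -2.39 in delIDR1 and -0.475 in DDX4. Both contrasts narrowed against chromosomes 16, 17 and 22. There delIDR1 was -1.27 points for constitutive sites, and for gained sites DBDmut (1.20) and delIDR1 (1.90) had the sign of CBR (1.67). With a -log10 q of at least 5, delIDR1 was 3.56 points for gained sites. Each mutant is 1 library, and these differences between mutants were not tested.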

How the results depend on the processing

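The gained share of WT BAF sites was lower on chromosome 19 under every setting run. Beside the difference of -24.5 percentage points it was -15.4 against chromosomes 16, 17 and 22, and -28.4 for SMARCA4 peaks alone. Its range without an Empty replicate was -24.4 to -23.9. The constitutive share, 20.2 points higher, was 11.8 points higher against chromosomes 16, 17 and 22, and 21.2 to 24.7 without an Empty replicate. For the H3K27ac gained share the difference was -18.96 points, and -14.1 against those chromosomes.

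The sign of the mean kept share over mutants was not stable. For gained sites it turned to 2.47 points with a -log10 q of at least 5, 2.12 with equal lists, 1.11 against chromosomes 16, 17 and 22, and 0.0191 to 0.755 without an Empty replicate. For constitutive sites it turned to -1.34, -0.317 and, with 50% overlap, -0.0509. The cause was not tested. For DBDmut, the kept constitutive share turned to -0.141 points with equal lists. H3K27ac at constitutive sites turned to -2.72 points in Empty replicate 2 and -1.57 in DDX4 with summits within 250 bp.

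The SMARCC1 rank difference was -2.43 with a -log10 q of at least 5 and -2.28 with equal lists. H3K27ac at own BAF sites was 2.12 points higher with 50% overlap and 1.67 with summits. SMARCA4 against SMARCC1 was 0.931 points without ends. Without an Empty replicate no sign-flip test of 7 libraries could pass, because 6 libraries allow 0.0313 at best and 0.05 after adjustment. The ranges were then 1.56 to 1.58, 1.35 to 1.36 and 1.07 to 1.09 for log2 density, and -13.2 to -13.1, -6.52 to -6.40 and -10.7 to -10.1 for rank (SMARCA4, SMARCC1, H3K27ac). They were 1.71 to 1.74, 0.821 to 0.929 and 0.776 to 0.918 points for SMARCA4 and SMARCC1 against H3K27ac and SMARCA4 against SMARCC1, and 2.89 to 2.93 for H3K27ac at own BAF sites.

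No paired analysis was possible because replicate numbers exist for Empty alone and no block by number joins the groups. The pairs tested in the report are another kind, lists of different antibodies from 1 construct or Empty replicate. Depth is known only as a relative value, each mutant is 1 library, and a site without a peak is not shown to lack the protein.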
